A study of Mus musculus with 10 samples.

Results

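Chromatin accessibility at 10 genes of the microglia and macrophage lineage (Spi1, Ptprc, Aif1, Csf1r, Sall1, Runx1, Ikzf1, Cx3cr1, P2ry12 and Cebpb) was examined in nuclei that a laser had cut out of frozen sections of mouse lung and mouse brain. A peak of open chromatin was taken as belonging to a gene if it overlapped the gene or lay within 5000 bp of its ends, with the nearest gene end deciding between several genes. This rule found 18 peaks at 9 of the genes, of 37511 peaks on nuclear chromosomes, and none at Cx3cr1. All libraries came from wild-type C57BL/6J mice, an inbred laboratory strain, whose tissue was treated on the slide with Tn5, the transposase that cuts open chromatin and inserts sequencing adapters. The 4 groups were lung with 50 nuclei captured one by one (n = 3), lung with about 200 nuclei captured as 10 areas of about 20 nuclei (n = 3), brain with 50 nuclei (n = 2) and brain with about 200 nuclei (n = 2). Age, sex, the number of mice and the brain region are not stated in the labels, which speak of technical duplicates at the least. The tests therefore measure the spread between libraries, which may be technical. Nuclei were picked at random and pooled; a lower level from fewer cells of a type and one from less open chromatin per cell cannot be told apart in such pools.

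Microglia are the resident macrophages of the brain, and the lung holds alveolar and interstitial macrophages as well as blood monocytes. These cells share a core programme in which the transcription factor PU.1, the product of Spi1, opens enhancers together with C/EBP and RUNX factors, while the receptor of colony-stimulating factor 1, the product of Csf1r, keeps the cells alive. Sall1, which encodes a zinc-finger repressor, sets microglia apart from other adult macrophages, and P2ry12 and Cx3cr1 encode receptors that microglia use to sense nucleotides and the neuronal chemokine fractalkine.

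Depth limits every value below. The libraries held 319307 to 465489 nuclear reads in brain and 340697 to 3075377 in lung, so 1 read was worth 2.15 to 3.13 reads per 1000000 nuclear-peak reads (RPM) in brain and 0.325 to 2.94 RPM in lung. Mitochondrial reads made up 93.4% to 95.8% of the reads in peaks in brain and 24.7% to 58.0% in lung, and RPM leaves them out. Lung 50-nuclei replicates 2 and 3 stood apart, with no read at 39.1% and 43.9% of nuclear peaks, against 2.45% to 13.8% in the other libraries. Of the 18 peaks, 8 and 5 had no read in these 2 libraries and 0 to 3 in each of the others. The 18 peaks were otherwise ordinary in size, at 152 bp and 135.5 reads over all libraries at the median, beside 164 bp and 120 reads for all nuclear peaks.

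Of the 18 peaks, 4 lay on a start of their own gene, that is, on the window from 250 bases before to 50 bases after a start that RefSeq lists on GRCm38.p6, the assembly of mm10. This was 22.2% of the peaks, and 25.9% of all nuclear peaks lay on such a window of some gene. The RefSeq table held 13 windows for 8 of the 10 genes, with none for Spi1 and Csf1r. The 250 bases before each of these 4 starts are shown because they include the Sall1 peak that set brain apart and both starts of Runx1, where the folds were below 0 but did not pass the test. They run 5′ to 3′ on the strand of the gene, with the bases inside the deposited peak in capitals. They are chr8:89043513-89043762 for Sall1, chr16:92826075-92826324 for the distal start of Runx1 and chr16:92697330-92697579 for its proximal start, all on the minus strand, and chr2:167688665-167688914 for Cebpb on the plus strand. The Sall1 and proximal Runx1 stretches lie inside the gene spans, and the tables used do not say whether exons of longer transcripts cover them.
Sall1: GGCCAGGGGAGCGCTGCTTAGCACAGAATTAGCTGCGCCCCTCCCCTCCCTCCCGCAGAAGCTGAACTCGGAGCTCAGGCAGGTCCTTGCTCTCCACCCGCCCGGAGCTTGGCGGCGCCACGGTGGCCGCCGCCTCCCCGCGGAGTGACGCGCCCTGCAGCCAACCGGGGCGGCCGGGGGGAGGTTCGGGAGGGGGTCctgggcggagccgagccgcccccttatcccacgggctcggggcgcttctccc
Runx1 distal start: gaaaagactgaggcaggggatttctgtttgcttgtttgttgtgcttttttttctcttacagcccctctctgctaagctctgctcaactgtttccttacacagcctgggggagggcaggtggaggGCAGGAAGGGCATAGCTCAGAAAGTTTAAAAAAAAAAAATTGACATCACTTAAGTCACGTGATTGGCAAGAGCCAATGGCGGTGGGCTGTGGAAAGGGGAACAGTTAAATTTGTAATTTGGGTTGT
Runx1 proximal start: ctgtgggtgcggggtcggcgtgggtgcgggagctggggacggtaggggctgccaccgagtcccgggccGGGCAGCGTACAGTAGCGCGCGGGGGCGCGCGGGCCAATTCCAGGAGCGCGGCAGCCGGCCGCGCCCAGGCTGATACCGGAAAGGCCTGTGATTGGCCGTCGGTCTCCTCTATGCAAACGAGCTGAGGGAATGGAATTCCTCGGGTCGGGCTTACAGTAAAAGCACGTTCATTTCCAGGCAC
Cebpb: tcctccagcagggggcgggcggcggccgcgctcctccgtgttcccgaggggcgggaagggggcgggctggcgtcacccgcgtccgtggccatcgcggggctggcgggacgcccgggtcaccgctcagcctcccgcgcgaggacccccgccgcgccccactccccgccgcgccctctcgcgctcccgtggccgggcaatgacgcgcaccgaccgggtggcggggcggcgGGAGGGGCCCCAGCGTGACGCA

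The Sall1 stretch was 74.4% G and C, with 198 of its 250 bases inside the peak, and the Cebpb stretch was 81.6% with 22 bases inside it. The distal start of Runx1 was at 45.6%, below the median of 52.4% over the 32851 RefSeq windows, with 126 bases inside the peak. Its proximal start was at 67.6%, with 182. A search of both strands for 6 motifs found no match in these 4 stretches. The motifs were a PU.1 core (AGGAAGT, in 7.69% of all windows over the same 250 bases), RUNX (TGTGGTT, 4.40%), C/EBP (TTGCNNAA, 9.56%), AP-1 (TGANTCA, 6.75%), IRF (GAAA, 2 bases of any kind and GAAA, 2.98%) and an E-box (CAGCTG, 13%). Other windows of the genes, where no peak lay, did hold matches. The PU.1 core lay 181 bases before another Sall1 start (chromosome 8, 89042862), 52 bases before that of P2ry12, and 113 and 58 bases before a Ptprc start, the latter match also falling 237 bases before a second Ptprc start. C/EBP matched before P2ry12 (204 bases), IRF before Aif1 (157) and the E-box before Cx3cr1 (121). A match is only a run of letters, and its absence says nothing of the factor.

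Sall1 was the single gene of the 9 with a peak at which a difference between the tissues passed the test. Its peak at chr8:89043565-89043765 (mm10) lay 153 bp upstream of a RefSeq start and 497 bp from the nearer end of the gene. It held 73 reads in brain and 12 in lung, although nuclear reads per library ran up to 3075377 in lung and 465489 in brain. The brain libraries stood at 35.6 and 53.2 RPM with 50 nuclei and at 45.1 and 53.7 RPM with 200 nuclei. All 3 lung libraries of 50 nuclei and lung 200-nuclei replicate 1 were at 0, and the other lung libraries at 2.93 and 2.60 RPM. Every brain library therefore lay far above every lung library, with a brain mean of 46.9 ± 8.52 RPM (SD, n = 4) against 0.922 ± 1.43 RPM (SD, n = 6). The fitted log2 fold of brain over lung was 6.45 ± 1.00 (SE, adjusted p = 4.71e-05), and with the lung level so near 0 its size rests on the prior count that the model adds. Pooled over libraries, the ratio of brain to lung was 30.8, with an exact 95% interval of 16.6 to 62.3 that covers counting error only.

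The Sall1 difference was present at both capture sizes. With 50 nuclei there were 30 brain reads and 0 lung reads. With lung set to a floor of 3 reads over its group of libraries, the ratio of brain to lung was 23.2, with no allowance for error. The exact 95% lower limit from counting error, on the reads as counted, was 17.8-fold. The edgeR quasi-likelihood test gave an adjusted p of 0.0100. With 200 nuclei, brain held 43 reads and lung 12, a pooled ratio of 25.9 (exact 95% interval 13.4 to 53.9, counting error only) and a log2 fold of 4.56 ± 1.07 (SE, adjusted p = 0.0154). The call at 200 nuclei was lost without any 1 of the lung or brain 200-nuclei libraries, without brain 50-nuclei replicate 2, or with library totals that include mitochondrial reads, and that at 50 nuclei without either brain 50-nuclei library. Averaged over sizes, the Sall1 call held in every setting that tested the peak, 18 in all, with log2 folds of 3.62 to 6.99 and adjusted p up to 0.0297. The default filter of edgeR removed the peak, but it worked on library totals that include mitochondrial reads. On reads summed per gene, whose totals hold none, the same filter kept Sall1. The edgeR test called it there (log2 fold 6.35 ± 1.04, SE, adjusted p = 0.00145).

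Across the 18 peaks, that 1 call, 5.56% of them, compares with 10.1% of all 37466 tested peaks called in either direction (5.78% higher in brain and 4.35% higher in lung). Scaling by library totals with mitochondrial reads included shifted the median over all peaks from 0.07 to -3.34 (log2) and turned this split into 252 higher in brain and 30079 higher in lung. Under that scaling the Sall1 fold was still above 0, at 3.62 on the log2 scale. At 50 nuclei and at 200 nuclei, 1 of 18 was called as well, Sall1 each time, with 1.41% and 2.23% of all tested peaks called. Without Sall1 the lowest adjusted p was 0.151. The fitted folds pointed to brain at 8 peaks and to lung at 10, with a median log2 fold of -0.05, beside 0.07 over all peaks. Brain and lung libraries did not overlap at 3 peaks: Sall1, where brain was above lung (8.4% of all nuclear peaks did so), and Spi1 peak 2 and Runx1 peak 1, where lung was above brain (4.94% of all). Summed over the 18 peaks, the level was 262 to 287 RPM in the lung libraries and 268 to 309 RPM in the brain libraries, so the totals overlapped. The map of levels by library shows how far single peaks moved within those similar totals.

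**Figure D1:**
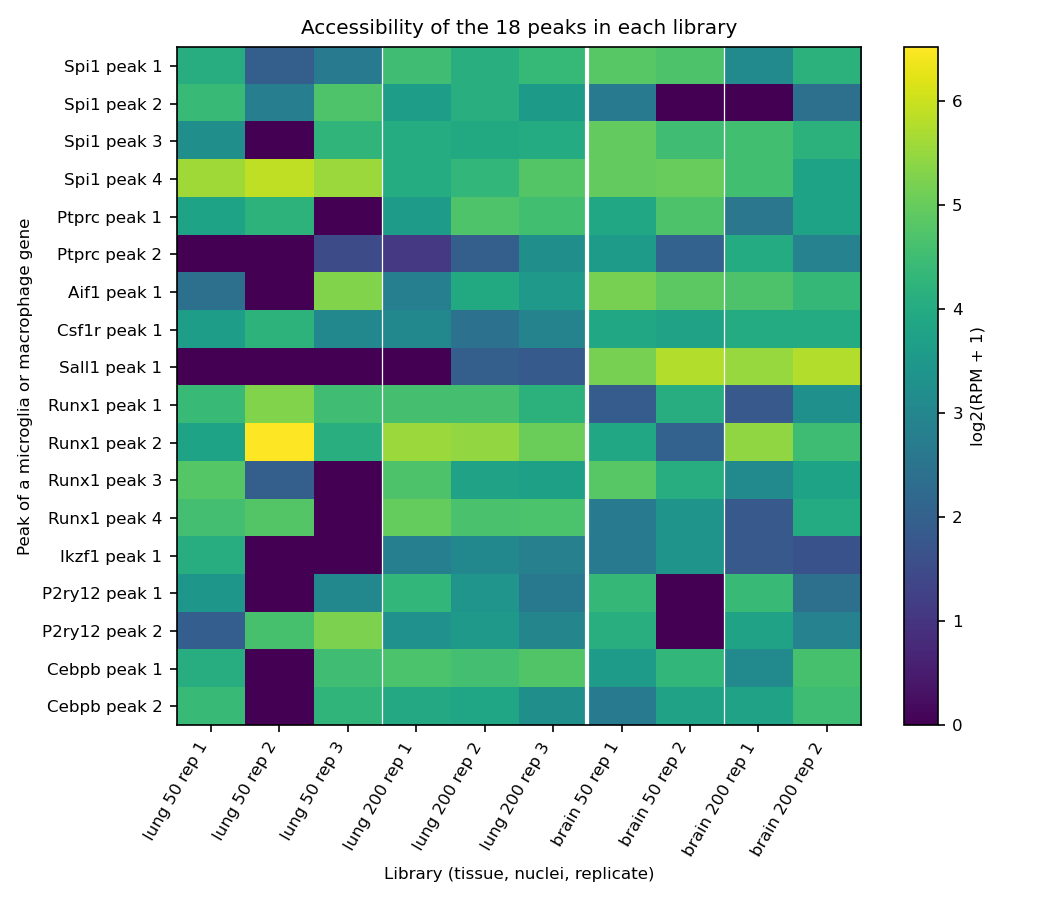
Level of each of the 18 peaks (rows, numbered by coordinate within a gene) in each of the 10 libraries (columns), as log2(RPM + 1), with the thick white line between lung and brain. Sall1 is at or near 0 in the 6 lung libraries and between 35.6 and 53.7 RPM in the 4 brain libraries, and lung 50-nuclei replicates 2 and 3 have 8 and 5 peaks at 0.

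**Figure D2:**
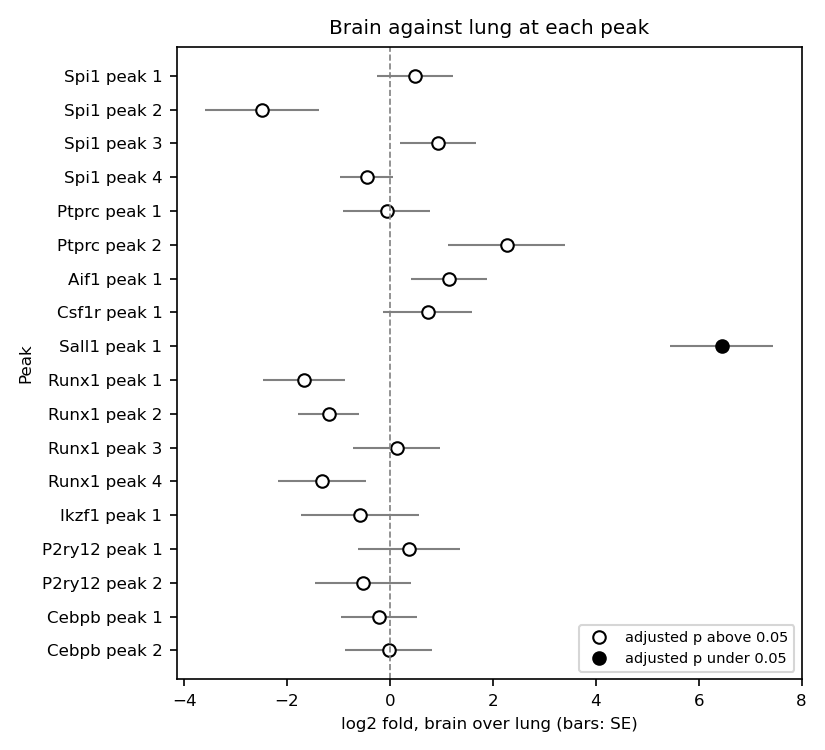
Fitted log2 fold of brain over lung at each of the 18 peaks (points) with its SE (bars), positive where brain was higher. The filled point marks the 1 peak with an adjusted p under 0.05, Sall1 at 6.45; the other points lie between -2.48 and 2.27.

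Spi1 encodes PU.1, the factor that myeloid cells and B cells need to form. It had 4 peaks, at chr2:91082963-91083145, chr2:91096595-91096721, chr2:91101524-91101657 and chr2:91115147-91115315, all within the gene and numbered 1 to 4 here; peak 4 also lay within 5000 bp of Mybpc3. Peak 4 held the most reads, with 46.9, 58.7 and 45.6 RPM in lung at 50 nuclei, 15.5, 19.0 and 26.7 RPM in lung at 200 nuclei, 30.1 and 31.3 RPM in brain at 50 nuclei and 22.6 and 12.9 RPM in brain at 200 nuclei. The lung libraries of 50 nuclei were the highest and the others overlapped. Brain against lung gave a log2 fold of -0.45 ± 0.51 (SE, adjusted p = 0.619) at this peak.

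The other Spi1 peaks did not share one direction. Peak 2 ranged from 5.87 to 25.6 RPM in lung (median 13.9) and stood at 5.47, 0, 0 and 4.30 RPM in brain. Only 4 brain reads lay behind it, and the log2 fold of -2.48 ± 1.11 missed the threshold (adjusted p = 0.151). Peak 3, less than 5000 bp further on, ranged from 0 to 18.3 RPM in lung (median 15.0) and from 17.2 to 30.1 RPM in brain (log2 fold 0.94 ± 0.74, adjusted p = 0.448). Peak 1 ranged from 2.94 to 22.2 RPM in lung and from 7.52 to 27.4 RPM in brain (0.48 ± 0.74, adjusted p = 0.725). A test of the difference between peaks of one gene was not run.

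Runx1, a factor of blood stem cells that also acts in myeloid and lymphoid cells, had no peak that passed the test, and its folds were below 0 at 3 of 4 peaks. Its peaks were chr16:92612618-92612854, chr16:92697283-92697511, chr16:92698690-92698878 and chr16:92825955-92826200. Peak 2 covers the proximal start and peak 4 the distal start, both among the sequences above, and peak 3 lies 1455 bp upstream of the proximal start. Peak 2 held the most reads of the 18, with 12.8, 91.0 and 16.4 RPM in lung at 50 nuclei, 45.4, 43.2 and 32.2 RPM in lung at 200 nuclei, 13.7 and 3.13 RPM in brain at 50 nuclei and 42.6 and 21.5 RPM in brain at 200 nuclei. Both tissues varied several-fold there and overlapped, and the log2 fold was -1.19 ± 0.60 (SE, adjusted p = 0.206). Peak 1 ranged from 17.2 to 38.2 RPM in lung (median 22.6) and from 2.51 to 15.7 RPM in brain, with no overlap, a log2 fold of -1.67 ± 0.79 and an adjusted p of 0.177.

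At the distal start of Runx1, peak 4 stood at 22.7, 26.4 and 0 RPM in lung at 50 nuclei and 30.5, 24.2 and 24.7 RPM in lung at 200 nuclei, against 5.47, 9.40, 2.51 and 15.0 RPM in brain. Apart from lung 50-nuclei replicate 3, every lung library was above every brain library. The log2 fold was -1.32 ± 0.85 (SE, adjusted p = 0.336), and it became -1.64 ± 0.57 (adjusted p = 0.0290) without lung 50-nuclei replicates 2 and 3. Peak 2 depended on lung 50-nuclei replicate 2, its highest library: without it the log2 fold was -0.54 ± 0.54 (adjusted p = 0.530), and without replicates 2 and 3 it was -0.52 ± 0.51 (adjusted p = 0.485). Without replicate 3 alone, peak 2 was called, at -1.37 ± 0.50 (adjusted p = 0.0488). Peak 3 gave 0.13 ± 0.85 (adjusted p = 0.945).

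**Figure D3:**
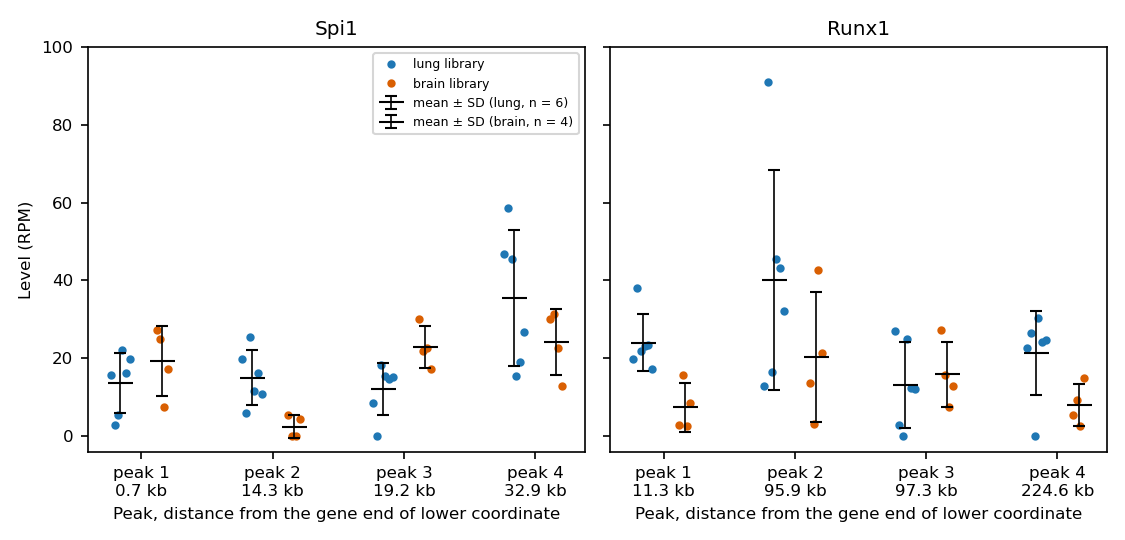
Level in RPM at the 4 peaks of Spi1 (left) and the 4 peaks of Runx1 (right), with 1 point per library and the mean ± SD of lung (n = 6) and brain (n = 4); the labels give the distance of each peak from the gene end of lower coordinate. At Spi1 peak 2 and Runx1 peak 1 no brain library reaches the lowest lung library, and at the other 6 peaks the tissues overlap.

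Ikzf1, which encodes the lymphoid and myeloid regulator Ikaros, and Cebpb, a leucine-zipper factor of macrophage activation that many other cells also use, did not separate the tissues. The Ikzf1 peak at chr11:11686183-11686289 held 58 reads in all. It stood at 15.6, 0 and 0 RPM in lung at 50 nuclei, 6.10, 7.32 and 6.18 RPM in lung at 200 nuclei, 5.47 and 9.40 RPM in brain at 50 nuclei and 2.51 and 2.15 RPM in brain at 200 nuclei. Its log2 fold of -0.58 ± 1.15 (SE, adjusted p = 0.790) became 2.23 without lung 50-nuclei replicate 1, the single library with reads in its group.

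Cebpb had a pair of peaks at its start, chr2:167688893-167689029 and chr2:167689119-167689232. The first stood at 15.6, 0 and 21.9 RPM in lung at 50 nuclei, 24.4, 22.7 and 26.0 RPM in lung at 200 nuclei, 10.9 and 18.8 RPM in brain at 50 nuclei and 7.52 and 23.6 RPM in brain at 200 nuclei. Neither peak had a read in lung 50-nuclei replicate 2, while the other 5 lung libraries summed to 34.5 to 40.2 RPM over both. The log2 folds were -0.21 ± 0.75 (SE, adjusted p = 0.890) and -0.03 ± 0.84 (adjusted p = 0.989).

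Among the receptors, Csf1r had 1 peak, at chr18:61108607-61108699 within the gene. Brain stood at 13.7, 12.5, 15.0 and 15.0 RPM, and lung at 11.4, 17.6 and 7.30 RPM with 50 nuclei and 7.20, 4.39 and 6.50 RPM with 200 nuclei. Lung 50-nuclei replicate 2 alone was above the brain libraries. The log2 fold was 0.73 ± 0.86 (SE, adjusted p = 0.629), and the pooled ratio of brain to lung was 1.95 with an exact 95% interval of 1.14 to 3.25 for counting error only. With mitochondrial reads in the scaling the log2 fold was -2.70, as the median of all peaks moved too.

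P2ry12 lies inside the span of Med12l, so its 2 peaks, at chr3:59228782-59228914 and chr3:59260793-59260926, belong to both genes by position. The second stood at 2.84, 23.5 and 36.5 RPM in lung at 50 nuclei, 8.87, 10.2 and 6.83 RPM in lung at 200 nuclei, 16.4 and 0 RPM in brain at 50 nuclei and 12.5 and 6.45 RPM in brain at 200 nuclei. Of the 4 brain libraries, 50-nuclei replicate 2 lay below all lung libraries and 200-nuclei replicate 2 below all but the lowest, while the other two fell among the lung values (log2 fold -0.53 ± 0.94, SE, adjusted p = 0.764). The first peak ranged from 0 to 18.8 RPM in lung and from 0 to 20.1 RPM in brain (0.36 ± 0.99, adjusted p = 0.854).

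Cx3cr1 (chr9:120048683-120068296) had no peak under the rule, but the nearest one, chr9:120073307-120073401, lay 5011 bp beyond the gene, just outside the limit, and was assigned to no gene. Its levels were 19.2, 18.8, 5.01 and 17.2 RPM in brain and 1.42, 0, 0, 6.10, 5.12 and 1.95 RPM in lung. Brain 200-nuclei replicate 1 was the only brain library within the range of lung. The member peak farthest from its gene, that of Aif1, lay 2557 bp outside it. Further peaks outside the limit lay 5460 bp from Aif1 (assigned to Prrc2a), 7580 and 8742 bp from Cebpb and 8888 bp from Csf1r. In that order, the lung and brain means were 290 and 160, 36.2 and 8.64, 16.5 and 31.4, and 13.2 and 3.13 RPM. They are not among the 18 peaks.

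Ptprc encodes CD45, the phosphatase on the surface of all leukocytes, and Aif1 encodes IBA1, the actin-binding protein by which microglia are commonly stained. Ptprc peak 1, at chr1:138136440-138136706, stood at 12.8, 17.6 and 0 RPM in lung at 50 nuclei, 11.1, 25.6 and 22.4 RPM in lung at 200 nuclei, 13.7 and 25.1 RPM in brain at 50 nuclei and 5.01 and 12.9 RPM in brain at 200 nuclei. The tissues overlapped almost wholly (log2 fold -0.07 ± 0.84, SE, adjusted p = 0.974). Peak 2, at chr1:138149041-138149145, had the fewest reads of the 18, 47 in all. It ranged from 0 to 8.45 RPM in lung and from 3.13 to 15.0 RPM in brain, and its log2 fold of 2.27 ± 1.14 missed the threshold (adjusted p = 0.209).

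The Aif1 peak, chr17:35178640-35178816, lay 2676 bp upstream of the RefSeq start. Brain stood at 35.6 and 28.2 RPM with 50 nuclei and 25.1 and 19.3 RPM with 200 nuclei. Lung stood at 4.27, 0 and 38.3 RPM with 50 nuclei and 6.10, 14.6 and 10.4 RPM with 200 nuclei. Every lung library was below every brain library apart from lung 50-nuclei replicate 3, which was above them all. The log2 fold was 1.15 ± 0.75 (SE, adjusted p = 0.342), and without that library it was 2.26 ± 0.71 (adjusted p = 0.0190). With mitochondrial reads in the scaling it was -2.32. With every gene of the annotation allowed, and not only protein-coding and listed ones, the nearest gene was Ncr3-ps in place of Aif1, and likewise Gm11999 in place of Ikzf1 at the Ikzf1 peak.

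Since most of these peaks held few reads, reads were also summed over the peaks of each gene and tested over all 12672 genes with a peak, of which 12.5% were called. Of the 9 genes, 1 was called, Sall1 (log2 fold 6.34 ± 1.03, SE, adjusted p = 0.00105). Runx1 came next, just short of the threshold, with a lung mean of 98.8 ± 40.8 RPM (SD, n = 6) against 51.6 ± 6.31 RPM in brain (SD, n = 4; log2 fold -1.09 ± 0.35, SE, adjusted p = 0.0514). It passed with DESeq2 (adjusted p = 0.0456), with the replicate number as a block (0.0260) and without lung 50-nuclei replicate 3 (0.00149), the library with the lowest Runx1 sum in lung, 38.3 RPM. It stayed short with RLE factors (0.0733), with nuclear totals alone (0.101), after thinning (0.147), without lung 50-nuclei replicate 1 (0.0507) or 2 (0.0735), without any 1 lung 200-nuclei library (0.0878 to 0.114) and without any 1 brain library (0.151 to 0.185). The other 7 genes were not called, with log2 folds of -0.35 ± 0.27 at Spi1 (76.1 ± 13.4 RPM in lung and 68.9 ± 20.3 RPM in brain, adjusted p = 0.442), 0.35 ± 0.63 at Ptprc (adjusted p = 0.773) and -0.32 ± 0.62 at Cebpb (adjusted p = 0.788). Aif1, Csf1r, Ikzf1 and P2ry12 had adjusted p of 0.477 to 0.793.

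**Figure D4:**
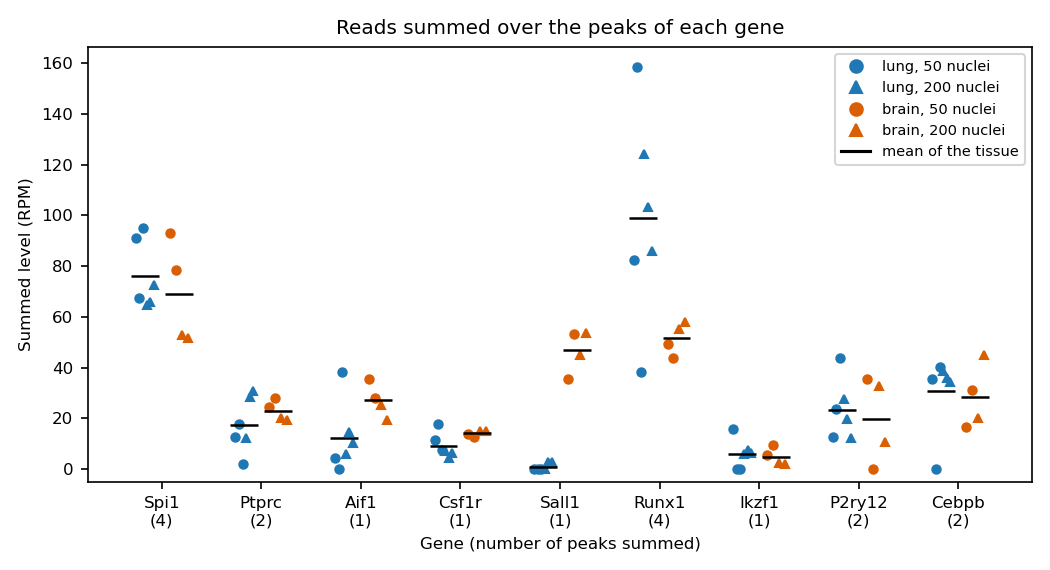
Reads summed over the peaks of each of the 9 genes with a peak, in RPM, with 1 point per library (circles for 50 nuclei, triangles for 200 nuclei) and a line at the mean of each tissue. Only at Sall1 do the tissues not overlap; at Runx1, 5 of the 6 lung libraries lie above all brain libraries.

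Per length of peak, the genes ranked differently in the tissues. In brain Sall1 was the most accessible, at 235 ± 42.6 RPM per kb of peak (SD, n = 4), followed by Aif1 at 154 ± 38.5 and Csf1r at 153 ± 13.2. Ikzf1 was the least, at 46.0 ± 31.7 RPM per kb. In lung Spi1 (125 ± 22.0 RPM per kb, SD, n = 6) and Cebpb (124 ± 61.2) were the most accessible and Sall1 the least, at 4.61 ± 7.16, below Ptprc at 46.8 ± 29.5. Neighbours in either order differed by less than the larger of their SDs, except for Sall1 and its neighbour in each tissue.

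No peak of these genes was called between 200 and 50 nuclei, averaged over tissues, or for a tissue difference that depended on size. Over all tested peaks, edgeR called 0% for size and 0% for the interaction, and DESeq2 called 0 as well. The unadjusted p of edgeR was under 0.05 at 1382 peaks for size (3.69%) and at 1531 for the interaction (4.09%). None of the 18 peaks had an unadjusted p under 0.05 in either test. In the edgeR fit the lowest were at Runx1 peak 2 for size (log2 fold 1.12 ± 0.59, SE, adjusted p = 1) and at Sall1 for the interaction (-3.76 ± 2.26, adjusted p = 1). Single capture went with 50 nuclei and area capture with 200, so those 2 factors cannot be told apart.

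Few peaks were called between the tissues on 5 further lists with 78 genes. These lists took in ligands and their receptors as well as genes of macrophages and microglia. On them 44 genes had 122 peaks, 67 of these at transcription factors. Of the 122 peaks, 0 were called higher in brain and 3 higher in lung, 2.46% in all beside 10.1% of all peaks. The median log2 fold of these 122 peaks was -0.41. Among ligands and their other receptors 1 of 17 peaks was higher in lung, at Tgfbr2, a receptor of TGF-beta (log2 fold -1.80 ± 0.44, SE, adjusted p = 0.00551). Summed over its peaks, this list ran from 433 to 607 RPM in lung and from 341 to 430 RPM in brain, without overlap. Among 20 other transcription factors 2 of 67 peaks were higher in lung, at Tal1, a factor shared by blood and endothelium (-2.30 ± 0.50, adjusted p = 0.00195), and at Irf1, an interferon-responsive factor (-1.03 ± 0.33, adjusted p = 0.0388). The sum of this list ran from 1987 to 2570 RPM in lung and from 1593 to 1811 RPM in brain, also without overlap. The edgeR test called 0 of 9 peaks of the microglia signature (2 with an unadjusted p under 0.05, 0 called by DESeq2), 0 of 25 of the shared surface and effector genes (0 unadjusted, 0 by DESeq2) and 0 of 4 of the alveolar macrophage genes (2 unadjusted, 1 by DESeq2, at Pparg). The median log2 folds of these lists were -0.86, -0.50 and 0.25, in that order. Their sums overlapped between the tissues. In lung and brain the microglia signature ran from 79.2 to 144 and from 65.8 to 107 RPM. The surface and effector genes ran from 261 to 417 and from 284 to 335 RPM. The alveolar macrophage genes ran from 0 to 55.8 and from 15.0 to 68.4 RPM. Differences between sums were not tested.

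Defining genes of these cells often had no peak in the table. In the microglia signature 8 of 12 genes had none, among them Siglech, Gpr34 and Trem2. Of the shared surface and effector genes 12 of 22 had none, among them Itgam, Adgre1, Cd68, Fcgr1 and the C1q genes. Of the alveolar macrophage genes 10 of 12 had none, among them Siglecf, Marco and Itgax. Ligands and their other receptors lacked a peak at 4 of 12 genes, and the other transcription factors at 0 of 20. The share of all genes without a peak was not counted. A gene without a peak was not measured here, which does not show its chromatin to be closed.

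Markers of other cell types were called more often between the same libraries. That contrast was not itself tested, and the lists were chosen with earlier results of these data known. Of 14 peaks at 8 neuronal genes 9 were higher in brain, beside 5.78% of all tested peaks, with the lowest p at Syt1, Elavl3, Tubb3 and Snap25. Of 8 astrocyte peaks 4 were higher in brain, at Kcnj10 and Sox9. Of 13 oligodendrocyte peaks 4 were, at Olig1, Mag, Mbp and Cnp. In lung, 22 of 50 endothelial peaks at 10 genes were higher, beside 4.35% of all tested peaks. The lowest p of these lay at Eng, Erg, Cdh5 and Egfl7. Of 28 peaks of the alveolar epithelium 6 were higher in lung, at Clic5 and Gprc5a, and 1 was higher in brain, at Etv5. The summed level of the neuronal list was 279 to 376 RPM in brain and 21.9 to 99.8 RPM in lung, that of astrocytes 235 to 307 and 23.5 to 58.7 RPM, that of oligodendrocytes 256 to 397 and 129 to 287 RPM, which overlap, that of alveolar epithelium 372 to 426 and 560 to 789 RPM, and that of endothelium 479 to 654 and 1543 to 2286 RPM. The list of lymphocytes and granulocytes, cells that also open Ptprc, Ikzf1 and Runx1, ran from 153 to 183 RPM in brain. In lung it ran from 203 to 324 RPM. On it 1 of 16 peaks was called in each direction, Ebf1 in brain and Tcf7 in lung. Both together made 12.5% of its peaks, near the 10.1% of all tested peaks. On that list 11 of 19 genes had no peak, Cd3e, Cd4, Cd8a and S100a8 among them. The neuronal and astrocyte levels were higher in brain, as that of Sall1 was. Those of endothelium, alveolar epithelium, and lymphocytes and granulocytes were higher in lung. The part of any of these cell types in the Sall1 difference was not tested.

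**Figure D5:**
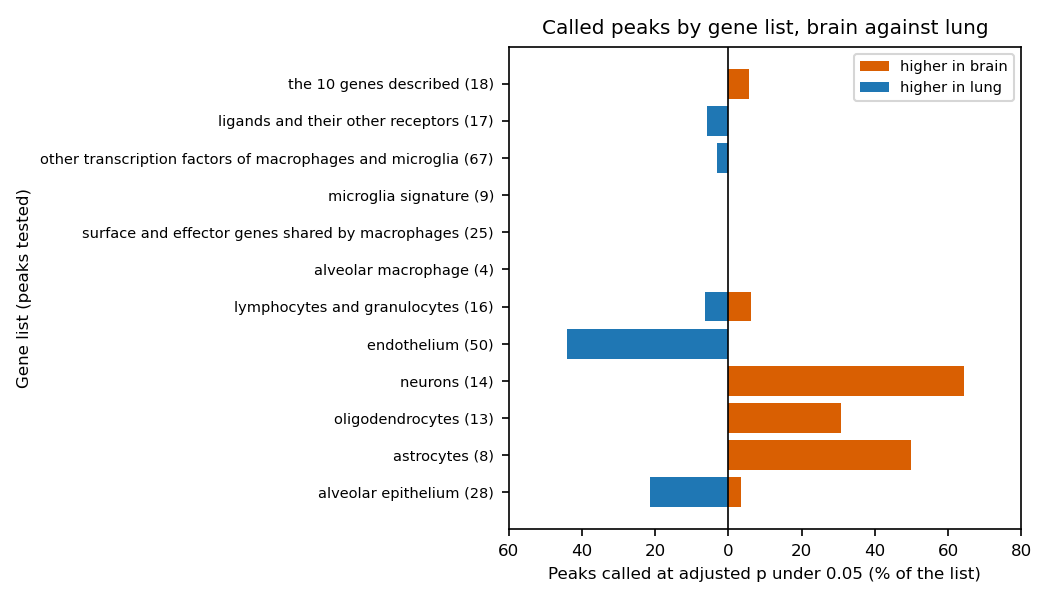
Share of the tested peaks of each gene list that was called (adjusted p under 0.05), to the right where brain was higher and to the left where lung was higher, with the number of peaks in brackets. The macrophage and microglia lists, and that of ligands and receptors, stay at or under 5.88%. Of neuronal peaks 64.3% were higher in brain, and of endothelial peaks 44.0% were higher in lung.

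Across the 10 libraries, 3 genes followed the summed level of Sall1 most closely: Rhbdl2 (Pearson's r = 0.990), Tmem229a (0.986) and Stmn4 (0.983), of 12219 genes compared, and 127 genes exceeded 0.9. All 3 were near 0 in lung (0.732, 1.23 and 0.827 RPM on average) and at 28.6, 59.4 and 37.9 RPM in brain. For Spi1 the closest were Rps15a (0.876), Pyroxd2 (0.858) and Rpl11 (0.831), and none exceeded 0.9. These correlations share libraries and depth and are given as a description.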

How the data were processed

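Accessibility was measured by ATAC-seq after laser capture in 6 lung and 4 brain libraries. The values are read counts per peak (mm10), 1 column per library, deposited by the authors as whole numbers. The submitters' processing notes name, with no roles or order, MACS2 2.2.7.1, Bowtie2 2.4.5, Trimmomatic 0.36, bcl2fastq 2.20, R 4.1.0, deepTools 3.1.3, Picard and SAMtools. How peaks were merged, reads counted and duplicates treated, and whether Tn5 cuts were shifted, is not given in the sources used here. Peak coordinates are printed as deposited, so an edge may be off by 1 base.

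Levels are reads per 1000000 reads in nuclear peaks (RPM). Peaks with at least 10 reads were tested with edgeR 4.0.16 (R 4.3.3, TMM, quasi-likelihood F test, 4 group means over all 10 libraries), with Benjamini-Hochberg adjustment over all 37466 peaks and a threshold of 0.05. The library totals of this peak fit included mitochondrial reads, and TMM factors then rescaled them. Scaling by library totals used the same totals without TMM. In the main fit of gene sums, the totals held no mitochondrial reads. Common dispersion was 0.350 for peaks and 0.138 for gene sums. The SE is the log2 fold divided by the root of F. The code was tested on simulated data. Gene spans, starts and sequences come from RefSeq, GRCm38.p6. The genes and lists were chosen with earlier results of these data known. Every peak is accounted for, and per-library values are given for peaks past the threshold and for the peak with most reads of each gene. On the other lists, called genes are named, at most 4 a list. DESeq2 1.42.0, other scalings and filters, thinned depth, other rules of assignment, left-out libraries and a replicate block were tried as alternatives.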

Additional observations from a re-analysis of the deposited data

Results flagged for a closer look

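In 46 groups of 4 or 6 libraries, the highest or lowest library was compared with the rest by Dixon's ratio, and 4 groups had a library that stood apart; chance marks about 1 group in 20. At Ptprc peak 2, lung 200-nuclei replicate 3 was at 8.45 RPM and the next lung library at 2.93 RPM. At Runx1 peak 1, lung 50-nuclei replicate 2 was at 38.2 RPM, above the next at 23.4 RPM. At Runx1 peak 4, over the distal start, lung 50-nuclei replicate 3 was at 0 RPM and the next lowest lung library at 22.7 RPM. Over both Cebpb peaks, lung 50-nuclei replicate 2 was at 0 RPM and the next lowest at 34.5 RPM.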

How the results depend on the processing

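Reads per peak were few, and calls changed when lung 50-nuclei replicates 2 and 3 were left out. Thinning every library to 319307 nuclear reads gave 3892 calls over all peaks. Of the 18 peaks, 1 was called in brain against lung. Without those 2 libraries 4 were (Aif1 at 1.91, Spi1 peak 2 at -2.64, Runx1 peak 4 and Sall1), and leaving out 1 library at a time gave 1 to 3 calls. Library totals with mitochondrial reads gave 17. The default filter of edgeR, applied to totals with mitochondrial reads in, tested 16 peaks without Sall1 and gave 0. At 50 nuclei these 2 settings gave 9 and 0 calls and leaving out 1 library 0 to 1; at 200 nuclei they gave 14 and 0, and 0 to 1. For gene sums, where 1 gene was called, library totals gave 9 calls, DESeq2 2, the fit without the 2 libraries 3, and leaving out 1 library 1 to 3. Size and interaction gave 0 calls in each setting run.

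The labels do not say whether replicate numbers are paired across groups, and the main fit did not pair them. Deviations of same-numbered libraries correlated at -0.030 to 0.020 over 13 pairs. In a brain group of 2 libraries the deviations mirror each other, so these values cannot decide the question. With a replicate block 1 of 18 peaks and 2 of 9 gene sums were called (Sall1 and Runx1), and Cebpb peak 1 was at 0.022.

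Over all peaks, the main fit gave 3796 calls (2166 higher in brain, 1630 higher in lung). These became 5513 with DESeq2 and 2028 (969 and 1059) with the block. Without the 2 libraries they were 8350 (3734 and 4616), and without 1 library 1590 to 7020. The default filter, applied to totals with mitochondrial reads in, gave 2034 (829 and 1205).

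Some small folds changed sign, and for each the cause was not tested. Ptprc peak 1, at -0.07, was 0.012 with RLE factors, 0.011 with DESeq2 and 0.0075 after thinning, and ran from -0.51 to 0.24 when 1 library was left out. Cebpb peak 1 was 0.19 after thinning and -0.76 to 0.090 with 1 library left out, and the Cebpb sum 0.11 after thinning. Ikzf1 was 2.23 (peak) and 2.05 (sum) without lung 50-nuclei replicate 1, from lows of -0.89 and -1.03 without replicate 3. P2ry12 was 0.76 (peak 2) and 0.16 (sum) without the 2 lung libraries, and its sum ran from -3.90 without brain 50-nuclei replicate 1 to 0.11 without replicate 2. Library totals gave -2.32 for the Aif1 peak and sum, -2.70 for both of Csf1r and -2.93 for the Ptprc sum.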
